A study of Mus musculus with 6 samples.

Results

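The genes described here encode the enzymes and the chaperone that modify collagen chains: the prolyl 4-hydroxylase alpha subunits P4ha1, P4ha2 and P4ha3, their shared beta subunit P4hb, the lysyl hydroxylases Plod1, Plod2 and Plod3, the lysyl oxidases Lox and Loxl2, and the collagen chaperone Serpinh1. They were chosen by gene name, and all 10 were found once each among the 39174 genes of the deposited table. RNA was sequenced from MLO-Y4, a mouse long-bone cell line with osteocyte-like features. In 3 flow cultures the cells were exposed to oscillating fluid flow at 10 dyn/cm² for 2 h in a parallel-plate chamber, and RNA was taken 2 h later, after a stay in fresh medium. In 3 non-flow control cultures the cells were sham-treated in parallel. All cultures were grown on glass coated with type I collagen at 300 µg/ml, were seeded 48 h before flow, and were about 60% confluent at the time of flow. The series is of 1 cell line under 1 flow regime and at 1 time, and every result is limited to that.

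Collagen chains are modified inside the endoplasmic reticulum before they fold into a triple helix. Prolyl 4-hydroxylase, a complex of alpha and beta subunits, hydroxylates proline residues, which stabilises the helix, and the lysyl hydroxylases hydroxylate lysine residues that later carry sugars and crosslinks. The chaperone encoded by Serpinh1, known as HSP47, binds the folded procollagen, and outside the cell lysyl oxidases start the crosslinking of fibrils. The hydroxylases need oxygen, iron, 2-oxoglutarate and ascorbate, and several of these genes are known targets of the hypoxia-inducible factor HIF-1. In bone these steps set the stability and crosslinking of the type I collagen matrix around osteocytes.

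Values are FPKM, fragments mapped to a gene scaled to its transcript length and to the size of the library, as deposited by the authors. Depth, read from the steps of low FPKM values, was 17910000 to 19010000 reads in the controls and 11020000, 5760000 and 19230000 reads in flow libraries 1 to 3. The groups were compared over the 11957 genes whose mean FPKM was 1 or more, on log2(FPKM + 1), by limma with Benjamini-Hochberg adjustment over all of them, and a gene was called at an adjusted p under 0.05. Over all genes 2 were called (0.0167%), and no collagen-modifying gene was among them. Of the defining osteocyte markers, Sost, Mepe and Fgf23 were listed at 0 in all 6 libraries and Dmp1 reached at most 0.0354 FPKM, while Pdpn had at least 357.5 FPKM and Gja1 at least 413.6 FPKM in every library. Phex, another osteocyte marker, was detected in every library, at 4.06 to 7.46 FPKM. Osteoblast markers summed to 160.1 to 193.1 FPKM in controls and 116.8 to 178.1 FPKM in flow, most of it Col1a1, and chondrocyte markers to 11.9 to 18.5 and 9.32 to 13.3 FPKM, most of it Sox9, with Acan at most 0.0154 and Col2a1 at most 0.0194 FPKM. The part of these levels in the results was not tested. Endothelial, adipocyte, skeletal muscle and epithelial markers each summed to at most 1.59 FPKM in any library. The leukocyte markers summed to 1.44 to 3.33 FPKM in controls and 1.92 to 2.77 FPKM in flow, nearly all of it Cd68. In a bulk culture fewer cells with a transcript and less transcript per cell cannot be told apart.

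Levels of the 10 genes spanned more than 3 orders of magnitude in the control cells. P4hb, which is also protein disulfide isomerase and serves many proteins besides collagen, was the most abundant, at 1213 ± 68.3 FPKM (SD, n = 3). Serpinh1 followed at 539.8 ± 43.9 FPKM and Lox at 287.1 ± 85.4 FPKM. Plod3 stood at 134.1 ± 6.93 FPKM, P4ha1 at 81.2 ± 8.44 FPKM and Plod1 at 62.4 ± 11.1 FPKM. Plod2 at 39.7 ± 9.48 FPKM and P4ha2 at 38.4 ± 5.90 FPKM could not be ordered, because their control values overlapped. P4ha3 was low at 2.11 ± 0.595 FPKM, and Loxl2 was below the limit for testing at 0.274 ± 0.119 FPKM. Apart from Plod2 and P4ha2, no 2 neighbours in this order overlapped in the controls, and the order of the means was the same in flow. The catalytic alpha subunits were less abundant per length than the beta subunit, summing to 121.7 ± 14.7 FPKM, and among the lysyl hydroxylases Plod3 held 57.0% ± 6.25 of the summed FPKM in controls (SD, n = 3).

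**Figure D1:**
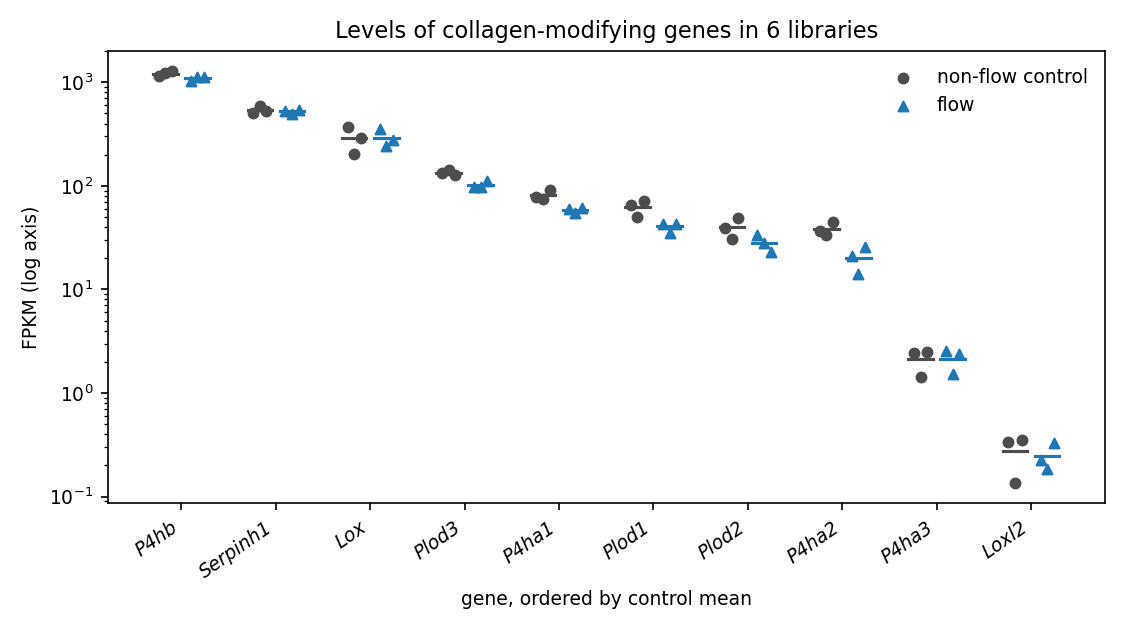
FPKM of the 10 collagen-modifying genes on a log axis, ordered by control mean, with 1 point per library, circles for the 3 non-flow controls, triangles for the 3 flow libraries, and a bar at each group mean. The points of P4ha1, P4ha2, Plod1 and Plod3 in flow lie wholly below those of the controls, while those of Lox, Serpinh1, P4ha3 and Loxl2 overlap.

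In flow, P4ha1, P4ha2, Plod1 and Plod3 were lower without overlap between the groups, P4hb was lower by a narrow margin, and Plod2, Lox, Serpinh1 and P4ha3 overlapped the controls. No gene of the 9 passed the test over all genes. Of the 9 genes tested, 7 had a negative log2 fold change, against 51.7% of all genes tested. In 5 of the 9 (P4ha1, P4ha2, P4hb, Plod1 and Plod3) the 3 flow values lay below all 3 controls, against 8.00% of all genes tested, and in 0 of the 9 did they lie above, against 7.12%. Without adjustment, 4 of the 9 (P4ha1, P4ha2, Plod1 and Plod3) had a limma p under 0.05 with lower values in flow, against 4.82% of all genes, and 0 with higher values, against 3.70%. The median log2 fold change was -0.39 over the 9 genes and -0.01 over all genes tested. The genes were chosen with earlier results of these data known, so these shares describe them and carry no test. Loxl2 was left out of the test because both groups were below the limit, and none of the other 9 needed 1 group alone to reach it. The other deposited table is shallower, at an estimated 690000 to 4720000 reads per library against 5760000 to 19230000 in the table tested. Its control columns and that of flow library 1 carry the titles of the same libraries, so it is not an independent repeat. In that table the 3 flow values lay below all controls in 2 of the 9 genes (P4ha1 and Plod3), against 5.91% of the genes tested there. Of the 9, 7 had a negative log2 fold change there. The median was -0.21 after a loess trend of the log2 values on transcript GC content was removed from each library, and -0.25 with flow library 3 alone against the controls, which leaves out the shallow flow libraries 1 and 2.

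**Figure D2:**
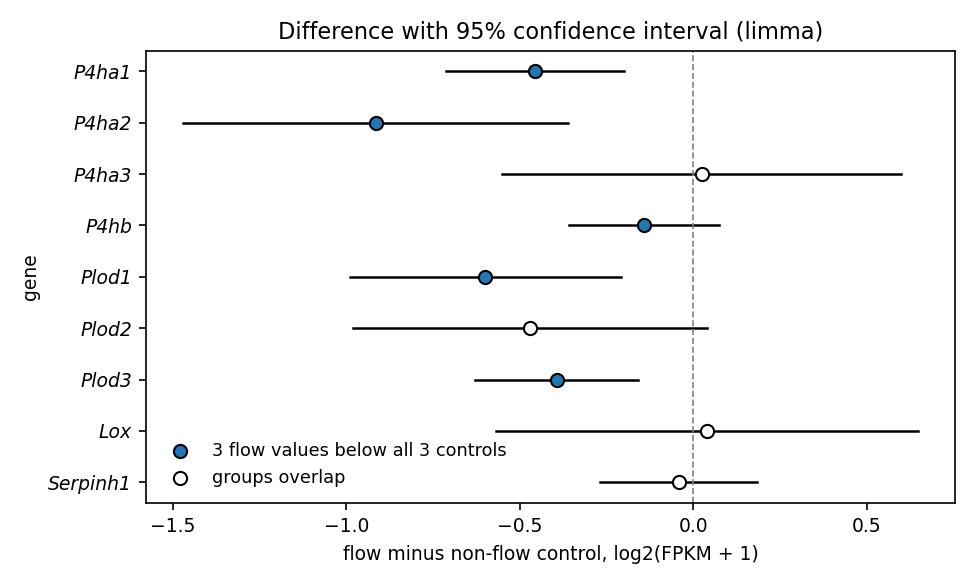
Difference between the group means, flow less control, in log2(FPKM + 1) for the 9 genes tested, with 95% confidence intervals from limma, and filled points where the 3 flow values lay below all 3 controls. The intervals of P4ha1, P4ha2, Plod1 and Plod3 lie wholly below 0 before adjustment for the number of genes, and those of P4ha3, P4hb, Plod2, Lox and Serpinh1 include 0.

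The prolyl 4-hydroxylase alpha subunits carry the catalytic site. P4ha1 (ENSMUSG00000019916, chromosome 10 at 59323296 to 59373304 of mm10, plus strand) and P4ha2 (ENSMUSG00000018906, chromosome 11 at 54100095 to 54131665, plus strand) were the alpha subunits with the 2 highest levels. Their promoters are shown because both genes are known HIF-1 targets and stood lower in flow together. Each sequence is the 250 bases before the RefSeq gene start (GRCm38.p6, the assembly of mm10), at chr10:59323046-59323295 for P4ha1 and chr11:54100674-54100923 for P4ha2, plus strand for both. The RefSeq start of P4ha2 lies inside the GENCODE bounds given above, which begin further upstream, and no base of the window is in a GENCODE exon of the gene. Capitals mark ACGTG or GCGTG on either strand (CACGT and CACGC when read on the strand shown), the core letters of the hypoxia response element.
P4ha1: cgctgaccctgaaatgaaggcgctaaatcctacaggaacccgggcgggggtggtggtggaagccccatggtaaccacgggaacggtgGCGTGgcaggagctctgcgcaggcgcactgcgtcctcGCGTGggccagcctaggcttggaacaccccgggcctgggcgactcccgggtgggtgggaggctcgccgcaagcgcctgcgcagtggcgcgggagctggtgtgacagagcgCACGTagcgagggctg
P4ha2: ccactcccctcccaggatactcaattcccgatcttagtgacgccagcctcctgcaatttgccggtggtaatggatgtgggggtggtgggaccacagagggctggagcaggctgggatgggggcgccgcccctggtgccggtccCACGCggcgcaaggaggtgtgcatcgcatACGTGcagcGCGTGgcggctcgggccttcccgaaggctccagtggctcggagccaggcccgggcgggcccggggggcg
Both windows held 3 copies. Their first bases stood 163, 126 and 16 bases before the start of P4ha1, and 107, 78 and 69 bases before that of P4ha2. Among 32851 RefSeq windows of the same length, 38.6% held at least 1 copy of either word, so a match is common and is a description of the letters only.

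P4ha1 had 77.5, 75.3 and 90.9 FPKM in non-flow controls 1 to 3 and 59.3, 55.3 and 61.6 FPKM in flow libraries 1 to 3. The highest flow value was below the lowest control, and the flow mean was 0.723 times the control mean (log2 fold change -0.46, SE 0.11, 95% interval -0.71 to -0.20; limma, adjusted p = 0.559). P4ha2 had 36.6, 33.7 and 45.0 FPKM in controls and 21.05, 14.2 and 25.7 FPKM in flow. It showed the lowest fold change of the 9 genes, with a flow mean 0.529 times that of the controls and no overlap (log2 fold change -0.92, SE 0.23, 95% interval -1.47 to -0.36; limma, adjusted p = 0.559). The shallowest library, flow 2, gave the lowest P4ha2 value, and with flow library 3 alone against the controls its log2 fold change was -0.55. P4ha3 had 2.44, 1.42 and 2.46 FPKM in controls and 2.54, 1.53 and 2.38 FPKM in flow. The 2 groups of P4ha3 values overlapped almost entirely, but at 19.4 to 103.1 reads per library (estimated from the longest transcript) the interval of its difference was wide, from -0.55 to 0.60.

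P4hb (ENSMUSG00000025130, chromosome 11 at 120560298 to 120573253, minus strand) holds the alpha subunits soluble in the endoplasmic reticulum. It had 1141, 1221 and 1277 FPKM in controls and 1029, 1132 and 1137 FPKM in flow. All 3 flow values were below the controls (the nearest values were 1137 and 1141 FPKM), and the flow mean was 0.906 times the control mean (log2 fold change -0.14, 95% interval -0.36 to 0.08; limma, adjusted p = 0.590). That separation was not present with quantile normalization, with median centring, after removal of the GC trend (log2 fold change -0.03) or in the other deposited table. Within each library the summed alpha subunits stood at 0.102, 0.0904 and 0.108 times P4hb in controls and at 0.0805, 0.0627 and 0.0789 times P4hb in flow. The alpha subunits were thus lower relative to the beta subunit in each flow library than in any control, with a log2 ratio lower by 0.44 on average (ratio of ratios 0.736; exact permutation test, two-sided, p = 0.1, adjusted p = 0.25 over 5 ratios). With 3 libraries against 3, 0.1 is the smallest p that test can give. The ratio was chosen with earlier results of these data known. P4ha1 and P4ha2 were each lower in flow without overlap and P4hb differed less, so the ratio largely restates those values.

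The mix of alpha subunits also differed between the libraries. P4ha1 made up 66.5%, 68.2% and 65.7% of summed alpha subunit FPKM in controls and 71.5%, 77.9% and 68.7% in flow, while P4ha2 made up 31.4%, 30.5% and 32.6% in controls and 25.4%, 19.98% and 28.7% in flow. The share of P4ha1 was higher in every flow library than in any control, and its log2 ratio to the sum of P4ha2 and P4ha3 differed by 0.42 (exact permutation test, two-sided, p = 0.1, adjusted p = 0.25). When P4ha2 and P4ha3 were averaged on the log2 scale, so that the low P4ha3 counted as much as P4ha2, that difference was -0.0072. Without flow library 2, the shallowest, the log2 ratio on summed FPKM differed by 0.22. In the other deposited table it differed by 0.27, but the groups overlapped there. In that table P4ha1 stood at 58.6 beside 36.2 FPKM of P4ha2 in a flow library, and at 69.3 beside 27.9 FPKM in non-flow control 2.

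Among the lysyl hydroxylases, the groups did not overlap in Plod1 and Plod3 and overlapped in Plod2. Plod1 (ENSMUSG00000019055, chromosome 4 at 147909753 to 147936767, minus strand) encodes LH1, which acts mainly on lysines of the helix, and Plod3 (ENSMUSG00000004846, chromosome 5 at 136987019 to 136996648, plus strand) encodes LH3, which also adds sugars to hydroxylysine. Their promoters are shown because these were the lysyl hydroxylases whose groups did not overlap, with the same words in capitals. The windows lie at chr4:147936777-147937026 (minus strand) for Plod1 and chr5:136986769-136987018 (plus strand) for Plod3.
Plod1: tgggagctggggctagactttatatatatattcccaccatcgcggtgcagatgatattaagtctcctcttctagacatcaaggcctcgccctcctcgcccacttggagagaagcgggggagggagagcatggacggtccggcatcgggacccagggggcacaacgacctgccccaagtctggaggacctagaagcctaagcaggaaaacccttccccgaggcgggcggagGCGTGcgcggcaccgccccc
Plod3: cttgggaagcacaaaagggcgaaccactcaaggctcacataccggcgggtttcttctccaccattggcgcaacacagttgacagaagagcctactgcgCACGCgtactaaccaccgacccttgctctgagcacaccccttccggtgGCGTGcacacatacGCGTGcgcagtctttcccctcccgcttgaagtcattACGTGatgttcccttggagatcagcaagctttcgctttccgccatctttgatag
Plod1 held 1 copy of these words, at 20 bases before the start, and Plod3 held 4, the nearest at 54 bases. Of the 7 collagen-modifying genes with a promoter in the RefSeq table, 6 held at least 1 copy, against 38.6% of all windows. P4hb held 2 copies and Serpinh1 held 1, and P4ha3 held none. Other words searched on both strands were CCACG, part of the ER stress response element, in 4 of the 7 and in 28.3% of all windows, GGGCGG, the GC box, in 6 of the 7 and in 32.7%, and GAANNTTC, of the heat shock element, in 0 of the 7 and in 6.69%. CCACG shares its last 4 letters with CACGT and CACGC, so 1 stretch can count for both. Plod2, Lox and Loxl2 had no entry. All but GAANNTTC hold CG, and the windows were not compared at equal base composition.

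Plod1 had 65.6, 50.0 and 71.5 FPKM in controls and 43.1, 35.4 and 43.1 FPKM in flow. Every flow value was below every control, and the flow mean was 0.650 times the control mean (log2 fold change -0.60, SE 0.16, 95% interval -0.99 to -0.21; limma, adjusted p = 0.559). Plod3 had 134.6, 140.8 and 126.9 FPKM in controls and 96.8, 97.0 and 112.1 FPKM in flow, again without overlap (0.760 times the control mean, log2 fold change -0.39, SE 0.10, 95% interval -0.63 to -0.16; limma, adjusted p = 0.559). Plod3 has the highest GC content of the 10 genes, 57.8% in its longest transcript. Its log2 fold change was -0.21 after removal of the GC trend and -0.25 with flow library 3 alone against the controls. Znhit1, on the opposite strand, covers 11.7% of Plod3 exon bases in GENCODE. Reads of the 2 genes there cannot be told apart where strand was not used in counting. The deposited locus of Plod3 starts at 136982163, before the GENCODE start of 136987019, and overlap in that added stretch was not measured.

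Plod2 (ENSMUSG00000032374, chromosome 9 at 92542223 to 92608428, plus strand) encodes LH2, which hydroxylates lysines of the telopeptides and so sets the type of crosslink. It had 39.2, 30.5 and 49.4 FPKM in controls and 33.3, 28.0 and 23.1 FPKM in flow. The groups overlapped, because flow library 1 was above non-flow control 2 (log2 fold change -0.47, SE 0.21, 95% interval -0.98 to 0.04; limma, adjusted p = 0.559). Without non-flow control 3, the highest value, the log2 fold change was -0.30, and with flow library 3 alone against the controls it was -0.73. With the GC trend removed, the 3 flow values lay below all controls (log2 fold change -0.63; limma, adjusted p = 0.697). Summed over the 3 lysyl hydroxylases, the level was 239.4, 221.2 and 247.8 FPKM in controls and 173.1, 160.4 and 178.3 FPKM in flow. Plod2 made up 16.7% ± 3.09 of that sum in controls and 16.5% ± 3.22 in flow (SD, n = 3), so its share did not differ beyond the spread between libraries (log2 ratio to the other 2 differing by -0.02, and by -0.17 to 0.18 without single libraries; exact permutation test, two-sided, p = 1).

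Lox, the first enzyme of fibril crosslinking and a known HIF-1 target (ENSMUSG00000024529, chromosome 18 at 52516067 to 52529867, minus strand), had 372.1, 201.3 and 287.9 FPKM in controls and 350.8, 242.1 and 275.8 FPKM in flow. The groups overlapped, and the spread between libraries of 1 group was wider than the difference (log2 fold change 0.04, SE 0.25, 95% interval -0.57 to 0.65; limma, adjusted p = 0.959). The direction turned without non-flow control 2 (-0.19) or flow library 1 (-0.11). Loxl2 (ENSMUSG00000034205, chromosome 14 at 69609068 to 69695834, plus strand), a lysyl oxidase that also acts on collagen of basement membranes, had 0.334, 0.136 and 0.351 FPKM in controls and 0.223, 0.183 and 0.329 FPKM in flow. These values correspond to an estimated 5.40 to 34.2 reads per library on its longest transcript, above the 3 reads taken as the floor (0.0305 to 0.102 FPKM), and the groups overlapped. The deposited locus of Loxl2, 69555423 to 69693698, differs from the GENCODE bounds, and the read estimates rest on the GENCODE transcript. The spread between libraries of 1 group was wider than the difference between the group means, 0.274 and 0.245 FPKM. The log2 ratio of Loxl2 to Lox differed by -0.12 (exact permutation test, two-sided, p = 0.7, adjusted p = 0.875), and its direction turned without non-flow control 3 (0.09) or flow library 1 (0.07).

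Serpinh1 (ENSMUSG00000070436, chromosome 7 at 99345376 to 99353239, minus strand) had 503.8, 588.6 and 526.8 FPKM in controls and 531.4, 498.3 and 540.1 FPKM in flow. The groups overlapped, and the interval of the difference was among the narrower ones, from -0.27 to 0.18 (log2 fold change -0.04, SE 0.09; limma, adjusted p = 0.860). That interval holds the difference measured for P4hb, and its lower bound is above the values measured for P4ha1, P4ha2, Plod1 and Plod3. The intervals of P4ha1, Plod1 and Plod3 overlapped that of Serpinh1, and no difference between genes was tested. The sign of the Serpinh1 difference turned to positive with the GC trend removed (0.13) and without non-flow control 2 (0.02).

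Library by library, P4ha1, P4ha2 and Plod1 ran closely together. Over the 6 libraries Pearson's r of log2(FPKM + 1) was 0.955 between P4ha1 and P4ha2, 0.954 between P4ha1 and Plod1, and 0.939 between P4ha2 and Plod1. In all 3 non-flow control 3 was highest and flow library 2 lowest. Plod3 was highest in non-flow control 2 and Plod2 lowest in flow library 3, with r to P4ha1 of 0.834 and 0.789. Lox ran with P4ha3 (r = 0.867) and not with P4ha1 (r = 0.0528). Both Lox and P4ha3 were lowest in non-flow control 2. These correlations are descriptions over 6 libraries that include the difference between the groups, and they carry no test.

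**Figure D3:**
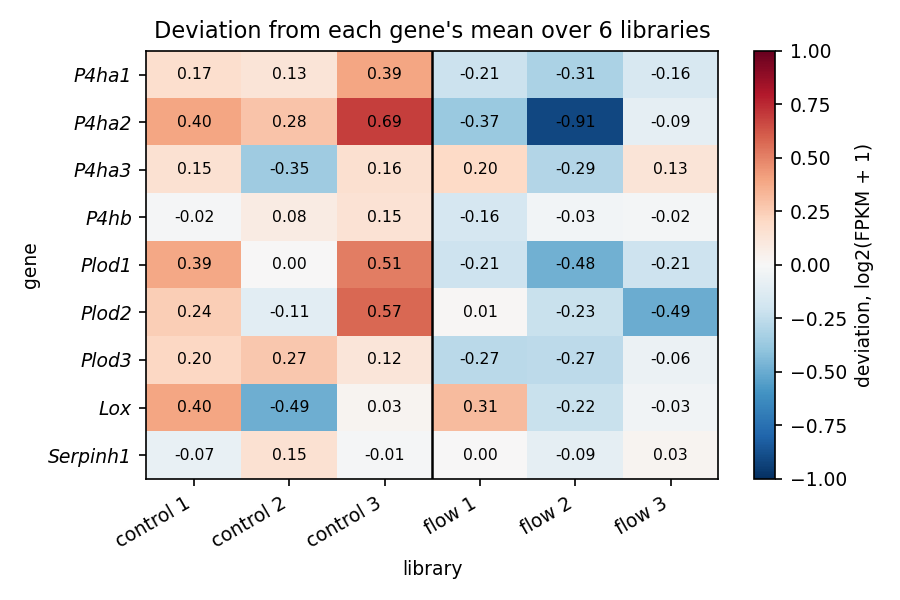
Deviation of log2(FPKM + 1) from each gene's mean over the 6 libraries, with 1 row per gene tested, 1 column per library, red above and blue below the mean. P4ha1, P4ha2 and Plod3 are positive in all 3 controls and negative in all 3 flow libraries, while Lox ranges from -0.49 in control 2 to 0.40 in control 1.

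Among 9237 other genes whose mean FPKM was 5 or more, those whose values over the 6 libraries were most like those of P4ha1 were Gzf1 (r = 0.994), Smyd3 (r = 0.990), Pgm2 (r = 0.989), Ppme1 (r = 0.987) and Bnip3 (r = 0.987). Pgm2 encodes a phosphoglucomutase and Bnip3 a mitophagy receptor that is a known HIF-1 target. This list was not searched for HIF-1 targets, and a part of HIF-1 was not tested. For P4hb the most alike were Flcn (r = 0.985), Ssbp4 (r = 0.979), Mks1 (r = 0.975), Capn10 (r = 0.975) and Letm1 (r = 0.972). Both lists describe 6 points, share the difference between the groups with the gene they were matched to, and carry no test.

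The 5 genes taken as known HIF-1 targets were P4ha1, P4ha2, Plod2, Lox and Loxl2. Of the 4 tested, 2 had flow values below all controls, against 8.00% of all genes tested, with a median log2 fold change of -0.46. Of the other 5, 3 did, against the same 8.00%, with a median of -0.14. No difference between these 2 groups of genes was tested.

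**Figure D4:**
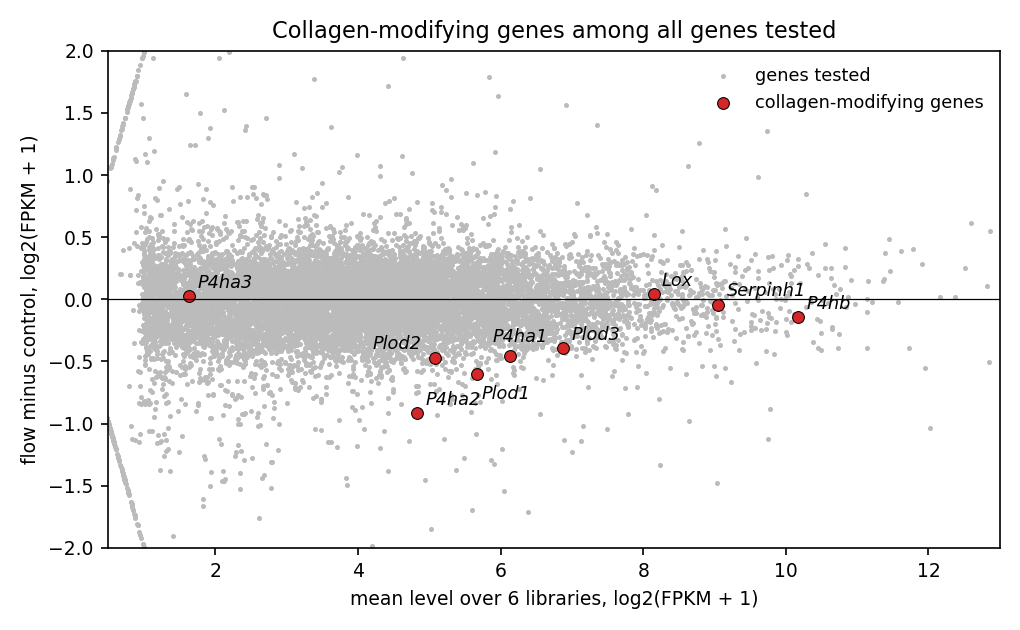
Difference between flow and control against mean level for the genes tested, both on the log2(FPKM + 1) scale, grey for all genes and red for the collagen-modifying genes; 202 of the 11957 genes lie outside the drawn range. P4ha1, P4ha2, Plod1, Plod2 and Plod3 lie at or below -0.39, and P4ha3, Lox, Serpinh1 and P4hb lie between -0.14 and 0.04.

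Of 21 other enzymes and chaperones, such as prolyl 3-hydroxylases, collagen galactosyltransferases and peptidyl-prolyl isomerases, 18 were tested and 0 called. Of these 18, 11 had a negative log2 fold change, against 51.7% of all genes tested, and in 4 (Fkbp10, Loxl1, Lepre1 and Sparc) the flow values lay below all controls, against 8.00%. Their median log2 fold change was -0.04. Fkbp10, the isomerase FKBP65 that assists LH2, had 176.3, 180.5 and 182.9 FPKM in controls and 121.1, 125.7 and 172.3 FPKM in flow. Flow library 3 stood close to the controls in Fkbp10 (log2 fold change -0.38, SE 0.15; limma, adjusted p = 0.559). With flow library 3 alone against the controls the log2 fold change of Fkbp10 was -0.06, and with the GC trend removed it was -0.20. Leprel2, the older symbol of the prolyl 3-hydroxylase P3h3, had 51.3, 56.0 and 53.8 FPKM in controls and 33.3, 40.3 and 53.6 FPKM in flow. Loxl1, a lysyl oxidase of elastic fibres, had 13.2, 12.02 and 12.3 FPKM in controls and 10.5, 9.62 and 11.5 FPKM in flow. With the GC trend removed, the log2 fold change of Leprel2 was -0.13 in place of -0.36, and that of Loxl1 was -0.0078 in place of -0.23.

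Of 16 genes of procollagen export and processing, 13 were tested and 0 called. Both counts of these 13 were near the shares over all genes: 8 had a negative log2 fold change, against 51.7%, and 1 (Sec13) had flow values below all controls, against 8.00%. Their median log2 fold change was -0.14. Pcolce, an enhancer of the procollagen C-proteinase, had 376.2, 316.8 and 378.1 FPKM in controls and 272.8, 202.8 and 343.0 FPKM in flow. Ctage5, which acts in the export of large cargo from the endoplasmic reticulum, had 125.1, 153.2 and 160.6 FPKM in controls and 206.0, 219.6 and 143.5 FPKM in flow. In Ctage5 flow libraries 1 and 2 were above every control and flow library 3 was not, and in Pcolce flow library 3 was above non-flow control 2. Sec13, a coat protein of vesicles leaving that compartment, had 141.8, 137.1 and 137.3 FPKM in controls and 121.4, 121.7 and 134.3 FPKM in flow (log2 fold change -0.14, SE 0.08; limma, adjusted p = 0.569).

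The fibrillar procollagen chains are the substrates of these enzymes. Of 11 such genes, 6 were tested and 0 called. Of these 6, 5 had a negative log2 fold change, against 51.7% of all genes tested, and 1 (Col1a2) had flow values below all controls, against 8.00%. Their median log2 fold change was -0.23. Col1a1, which encodes the more numerous chain of the type I helix, had 169.2, 140.2 and 151.4 FPKM in controls and 131.9, 105.3 and 159.3 FPKM in flow (log2 fold change -0.23, SE 0.17; limma, adjusted p = 0.620). Col1a2, its partner chain, had 123.1, 111.1 and 108.9 FPKM in controls and 96.2, 92.0 and 97.4 FPKM in flow (log2 fold change -0.26, SE 0.09; limma, adjusted p = 0.559). Col3a1, the chain of the type III helix, had 205.9, 148.7 and 156.5 FPKM in controls and 160.0, 140.1 and 127.5 FPKM in flow, with overlap. With the GC trend removed the median of these chains was -0.02, and with flow library 3 alone against the controls it was also -0.02.

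To set the enzymes against their substrate within each library, summed FPKM was divided by that of Col1a1 and Col1a2. For all 10 genes together the ratio was 8.12, 9.32 and 9.52 in controls and 9.50, 10.7 and 8.65 in flow, with overlap (log2 difference 0.09; exact permutation test, two-sided, p = 0.5, adjusted p = 0.833). That sum is mostly P4hb and Serpinh1. Ratios of the hydroxylases alone were added after these values were seen. The alpha subunits stood at 0.398, 0.439 and 0.531 times the collagen sum in controls and at 0.363, 0.360 and 0.350 times it in flow. The lysyl hydroxylases stood at 0.819, 0.880 and 0.952 times the collagen sum in controls and at 0.759, 0.813 and 0.695 times it in flow. Both ratios were lower in every flow library than in any control, with log2 differences of -0.34 and -0.23. Because they were chosen for the low values of these genes, they restate that observation and carry no test. The difference of the alpha subunit ratio was -0.23 without non-flow control 3 and -0.21 with means of log2 values in place of sums.

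**Figure D5:**
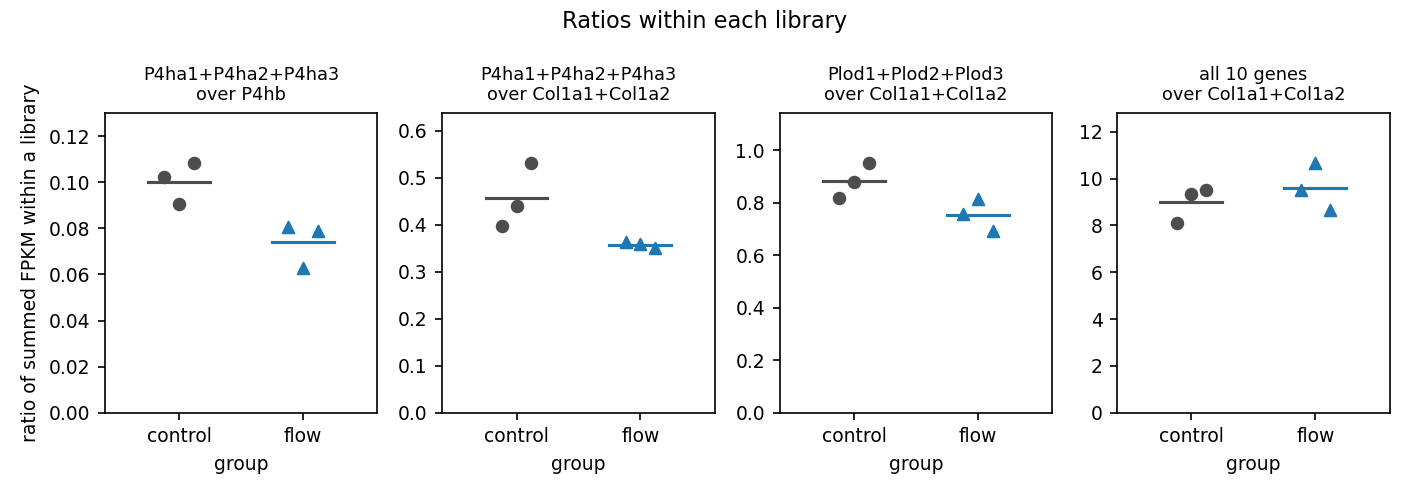
Ratio of summed FPKM within each library, with 1 point per library, a bar at each group mean and an axis from 0, for alpha subunits over P4hb and for alpha subunits, lysyl hydroxylases and all 10 genes over Col1a1 and Col1a2. In the first 3 panels the 3 flow points lie below the 3 control points, and in the last the groups overlap.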

How the data were processed

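FPKM in 1 column per library is what the authors deposited, in 2 tables, per the file headers. Named in the submitters' processing notes are mm10, Cufflinks 2.2.1, TopHat2 2.0.9 and CASAVA 1.8.2. Which annotation was used, and whether counting used strand, is not given in the sources used here. The table in which all 6 columns name a library title was tested. Of the columns of the other table, 2 match no title and were used only as flow libraries, and 22 rows that repeat a gene identifier were reduced to the row with the higher mean. The 3 replicates of a group date from different days, per the labels' protocols, and p-values measure the spread between such cultures.

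Genes whose mean FPKM was 1 or more were tested on log2(FPKM + 1), a scale that understates the change of low genes, with limma 3.58.1 in R 4.3.3 (eBayes with trend, two-sided, no covariate). The fit was tested on simulated data. Ratios within libraries were tested by exact permutation. Depth was estimated, for genes with 1 transcript longer than 800 nt, from FPKM multiplied by length minus 200 nt. Of such low values in the table tested, 74.7% to 81.2% came out whole, to a tolerance of 0.02 reads. The depth and read numbers hold only if the authors did not rescale the libraries, and floors cover counting error only. GENCODE M21 (mm10) gave the 1-based coordinates, transcript lengths, GC content and overlaps, and RefSeq the promoters.

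The genes, lists and tests were chosen with earlier results of these data known. The genes named are the 10 members, the 3 tested genes with the smallest p in each other list, Col1a1, Col1a2, and the 5 genes most like P4ha1 and P4hb. Genes listed by count of 5 or fewer were also named, after their values were seen. Alternatives were other pseudocounts, filters, scalings and limma settings, GC correction, adjacent titles as pairs, the other table and omission of libraries.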

Additional observations from a re-analysis of the deposited data

How the results depend on the processing

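Under 20 alternatives each, P4ha1 (-0.55 to -0.37), P4ha2 (-1.10 to -0.55), P4hb (-0.19 to -0.03), Plod1 (-0.75 to -0.49), Plod2 (-0.73 to -0.30) and Plod3 (-0.46 to -0.21) kept a negative log2 fold change. None of them was called, at adjusted p from 0.0695 to 0.962 (limma). The filters, protein-coding genes alone, the fit without trend and the replicate block cannot change a log2 fold change, only its error. P4ha1 and Plod3 had flow values below all controls under every alternative, and P4ha2 and Plod1 under all but the other table, in which 2 of the 9 genes did. Only quantile normalization, median centring, GC correction and the other table could undo such a separation. The remaining alternatives keep the order of the values or leave libraries out. The cause of the changes below was not tested. The 2 genes called over all genes became 4 with a pseudocount of 0.1, 1 with a pseudocount of 5, 4 without a filter, 76 without flow libraries 1 and 2 (flow library 3 is then assumed to vary like the controls), and 3 to 14 without single libraries. With protein-coding genes alone 0 were called by limma (563 lower and 435 higher at an unadjusted p under 0.05), and with GC correction 0 (409 lower and 287 higher). Adjacent titles share no replicate label. Over the genes tested, deviations from the group mean correlated at 0.043, 0.0227 and 0.0644 between libraries with adjacent titles. Between control and flow libraries with other titles they correlated at -0.0685 to 0.0268, and pairing was not established. A replicate block on adjacent titles called 1 gene and none of the 10.

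With GC correction, with or without the replicate block, the median log2 fold change was -0.205 for the 9 genes, 0.03328 for the other enzymes and chaperones, -0.04171 for export and processing and -0.01894 for the fibrillar chains, and Lox (-0.09873) and Serpinh1 (0.1294) changed sign. Flow values below all controls were then found in 1 of the other enzymes and 0 fibrillar chains, against 6.47% of all genes tested. Without flow libraries 1 and 2 the medians were -0.2548 for the 9 genes, -0.01962 for export and -0.0162 for fibrillar chains, the counts below all controls were 7 other enzymes, 4 export genes and 2 fibrillar chains (25.5% of all genes, as 1 flow value is compared), and Lox (-0.01322), Serpinh1 (0.004161), Ctage5 (-0.01962) and Col1a1 (0.05623) changed sign. In the other table the export median was -0.0283, and those counts were 1, 0 and 0, against 5.91% of the genes tested there. With quantile normalization they were 2 other enzymes and 0 export genes, against 6.63% of all genes tested. Without single libraries the medians ranged from -0.391 to -0.302 for the 9 genes, from -0.08569 to 0.03913 for other enzymes, from -0.1618 to -0.05139 for export and from -0.3158 to -0.06207 for fibrillar chains. The counts then ranged from 1 to 5 for export and from 1 to 2 for fibrillar chains, while the share of all genes ranged from 10.9% to 22.8%, the highest, with the 5 export genes, without flow library 3. Lox ranged from -0.1932 to 0.2484, Serpinh1 from -0.09051 to 0.02153 and P4ha3 from -0.1473 to 0.1745. With means of log2 values in place of summed FPKM, the log2 ratio of P4ha1 to the other alpha subunits was -0.007178 and that of all 10 genes to Col1a1 and Col1a2 was -0.0613. The ratio of Loxl2 to Lox was not computed in the other table, where Loxl2 is listed at 0 in non-flow control 1. In all, 14 values for single genes changed sign and 345 did not, and 51 summary values moved and 230 did not. The unchanged values include those of settings that could not change them.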
